A study of Homo sapiens with 6 samples.

Results

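Chromosome 8 of 143B cells, a human osteosarcoma line, was followed gene by gene in the deposited table, from ZNF596 on the short arm to C8orf33 on the long arm. The table lists genes in genome order, and the stretch holds 2165 rows. A row was kept when it had a value in at least 2 vector control (VC) libraries and at least 2 CNTNAP4 knockout (KO) libraries, which left 708 genes of 19306 tested genes (3.67%). Of these, 255 lie on the short arm (rows up to HGSNAT), 451 on the long arm (rows from SPIDR on) and 2 between the arms (ASNSP1 and LOC100287846). No value was listed in any library for 1245 rows of the stretch, and 212 rows had some value but too few. Against a RefSeq table, 1942 rows were placed on chromosome 8 and 0 on another chromosome, and 223 had no match. Another 5 rows placed on chromosome 8 lie outside the stretch and were not followed. Among the 634 kept genes with a RefSeq position, 2 of 633 neighbouring steps ran backwards, so that file order is genome order for nearly all of them.

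The study deleted CNTNAP4, a cell surface protein of the neurexin family and a receptor for the secreted bone growth factor NELL1, from 143B cells with CRISPR/Cas9. The 3 VC libraries come from 143B cells given the vector plasmid, with the control genotype, and the 3 KO libraries from 143B cells given the CNTNAP4 knockout plasmid. All 6 share the same line, medium and transfection reagent. The labels give 48 h of transfection, whereas the study's methods describe sorting of single cells and growth of 2 knockout colonies, and the labels do not say which colony or colonies a KO library came from. What separates one clonal population from another can therefore not be told apart from the knockout. Nothing in the labels ties the libraries of a group to separate cultures, so every spread given here is a spread between these libraries and may be technical.

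A chromosome consists of a short (p) and a long (q) arm joined at the centromere. Tumour lines such as osteosarcoma lines often carry rearranged chromosomes. In RNA, genes that lie side by side can be read together, since a difference shared by neighbours with unrelated functions appears as a step in the signal along the chromosome. The short arm of chromosome 8 is known for the death receptor cluster, the defensins and the region around FGFR1, and the long arm for MYC, osteoprotegerin, cohesin and several ribosomal proteins.

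Signals were log2 values that had been quantile-normalized between libraries, with a median of 0.62 in each library, and their linear unit is not named, so depth is unknown and no counting interval can be given. Values were listed for 20333 to 21041 genes per library. CNTNAP4 itself had a value only in VC replicate 3 (-7.18, near the bottom of the scale), so the table offers no check of the knockout labels. Among 11 markers of bone and mesenchymal cells, VIM (10.33 to 10.93), SPARC (6.46 to 6.95) and FN1 (5.33 to 5.98) were high in every library, whereas IBSP had no value and SP7, COL1A2 and BGLAP were low or missing. All 8 markers of other cell types had a value in at least 1 library, and their summed linear signal was 24.9 to 26.0 in VC and 54.5 to 89.9 in KO. Nearly all of this was CD68 (4.43 to 4.51 in VC and 5.71 to 6.46 in KO). The sum of the other 7 was 3.18 to 3.57 in VC and 1.87 to 2.29 in KO. Most of it was EPCAM, an epithelial marker (1.62 to 1.79 in VC and 0.84 to 1.16 in KO). CDH1 was listed in 1 library only, and PTPRC was under -4.3 in all 6. The part of these markers in the values below was not tested.

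Relative to tested genes elsewhere, the long arm was lower in KO than in VC and the short arm was not. Chromosome 8 was chosen because of its shift in this contrast, so all KO minus VC values below are descriptions with no test. Differences are on the log2 scale, as the KO mean minus the VC mean of a gene. The median difference of the 451 long arm genes was -0.46 (quartiles -0.82 and -0.11), a median KO signal of 72.5% of VC. The median difference of the 255 short arm genes was -0.09 (quartiles -0.50 and 0.25), or 94.1% of VC, beside -0.12 over the 18598 tested genes elsewhere. In bulk RNA, fewer cells that express a gene and less RNA per cell cannot be told apart.

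**Figure D1:**
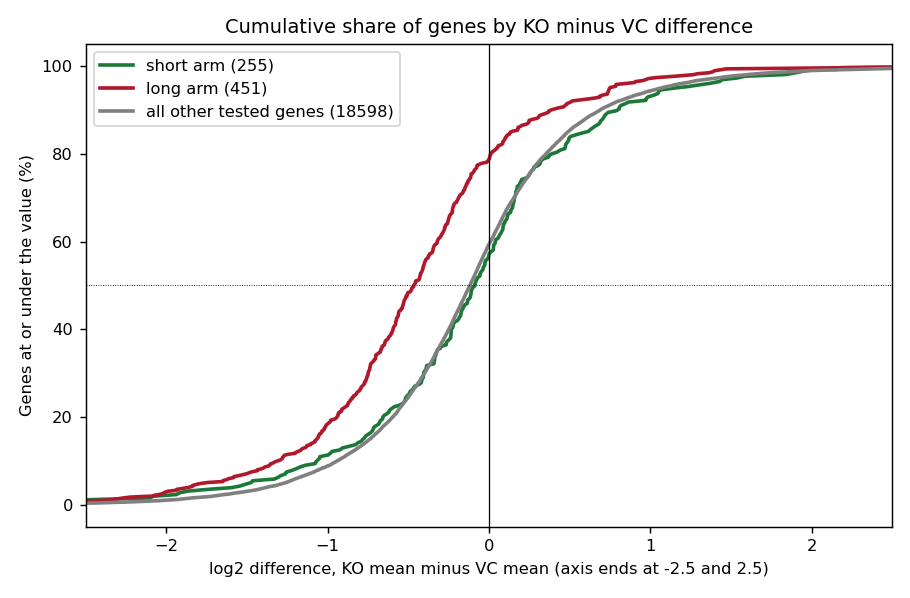
Cumulative share of genes (vertical axis, percent) at or under each log2 difference, KO mean minus VC mean (horizontal axis, cut at -2.5 and 2.5), for 255 short arm genes, 451 long arm genes and the 18598 other tested genes. The long arm curve lies to the left, crossing 50% at -0.46, while the short arm curve runs close to that of the other genes.

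Each KO library showed the same difference between the arms. Against the VC mean of each gene, the long arm median was -0.40 in KO replicate 1, -0.53 in KO replicate 2 and -0.47 in KO replicate 3 (SD 0.063, n = 3). The corresponding short arm medians were 0.02, -0.14 and -0.13 (SD 0.089, n = 3). All 3 long arm values were lower than all 3 short arm values. To set aside the overall lean of a library, the median of its tested genes outside the stretch was subtracted. This relative value was -0.36, -0.38 and -0.33 for the long arm and 0.06, 0.01 and 0.02 for the short arm in KO replicates 1 to 3. In the VC libraries, each compared with the other 2, relative arm medians stayed between -0.02 and 0.04.

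Of the 451 long arm genes, 355 (78.7%) had a lower mean in KO, and of the 255 short arm genes 145 (56.9%), beside 59.8% of all tested genes. With limma and Benjamini-Hochberg adjustment over all 19306 genes, 200 long arm genes (44.3%) were called lower and 21 (4.66%) higher at an adjusted p under 0.05. Of the short arm genes, 42 (16.5%) were called lower and 40 (15.7%) higher. Over all tested genes, 19.8% were called lower and 13.1% higher (32.9% in either direction). On chromosome 14, 258 of 561 genes (46.0%) were called lower and 36 (6.42%) higher, so the long arm shares are not particular to it. All 3 KO values lay under all 3 VC values for 255 of the 404 long arm genes with 6 values (63.1%) and above them for 34 (8.42%). For the short arm these counts were 75 (32.6%) and 59 (25.7%) of 230 genes, beside 36.7% and 22.6% of all genes with 6 values. Since the chromosome was chosen from this contrast, nothing is read from these counts. They also depended on single libraries. Without VC replicate 1, 72 long arm (16.7%) and 4 short arm genes (1.63%) were called lower, beside 3.47% of all tested genes. Without VC replicate 2 these were 135 (30.9%) and 15 (6.15%), beside 7.45%. Without VC replicate 3 they were 66 (15.3%) and 5 (2.07%), beside 3.05%. Without KO replicate 1 the counts were 214 (50.2%) and 67 (27.6%), beside 31.0%. Without KO replicate 2 they were 170 (39.1%) and 24 (9.92%), beside 14.3%. Without KO replicate 3 they were 100 (23.4%) and 12 (4.92%), beside 5.54%. The share of all tested genes called lower ranged from 3.05% without VC replicate 3 to 31.0% without KO replicate 1.

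The arms were then compared by gene type and by signal. The 334 protein-coding genes of the long arm had a median difference of -0.47 and its 80 long non-coding RNAs one of -0.45. On the short arm the medians were -0.06 for 180 protein-coding genes and -0.14 for 48 long non-coding RNAs. For the non-coding RNAs the library medians were -0.30, -0.65 and -0.40 on the long arm and 0.14, -0.08 and -0.37 on the short arm in KO replicates 1 to 3, so that the arms lay close together in KO replicate 3. From the lowest to the highest of 4 equal classes of mean signal, the long arm medians were -0.56, -0.57, -0.46 and -0.38, and the short arm medians -0.40, -0.13, -0.04 and 0.07. Genes outside the stretch had medians of -0.21 in the lowest and -0.06 in the highest class. In the lowest class the library medians were -0.46, -0.73 and -0.44 for the long arm and -0.14, -0.74 and -0.64 for the short arm, so that there the long arm was lower in KO replicate 1 only. In the other 3 classes the long arm median was lower than that of the short arm in every KO library. Dropping out of the table was also counted. On the long arm 40 rows had at least 2 VC values but fewer than 2 KO values, and 18 the reverse, whereas on the short arm these counts were 16 and 13. Among rows outside the stretch they were 1254 and 847. The defensins, antimicrobial peptides of the distal short arm, contributed 25 protein-coding rows and 0 kept genes.

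Among the other 21 autosomes, relative medians in KO (the mean over the 3 libraries) ran from -0.26 on chromosome 14 and -0.17 on chromosome 20 to 0.43 on chromosome 22. The long arm of chromosome 8, at -0.36, was under all of these whole chromosomes, and the short arm, at 0.03, was within their range. Other chromosomes were not split into arms, so that an arm is set beside whole chromosomes here. Chromosome 22 lay farther from 0 than the long arm, in the opposite direction. Within each library the order was the same at the bottom: chromosome 14 stood at -0.28, -0.24 and -0.26 in KO replicates 1 to 3, above the long arm of chromosome 8 each time.

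**Figure D2:**
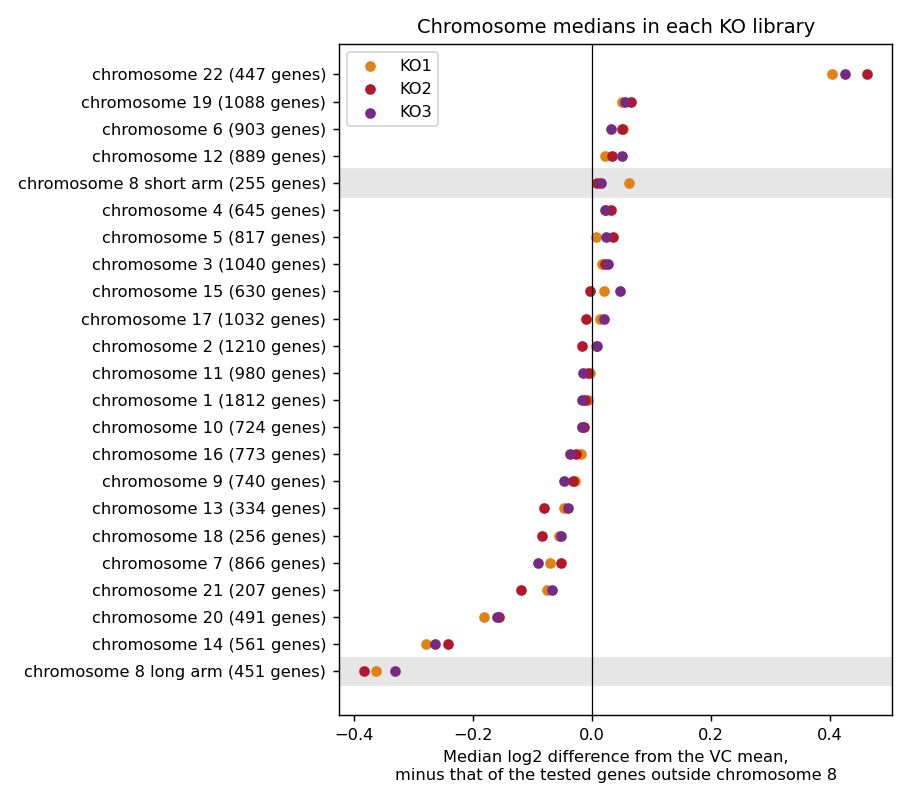
Median log2 difference from the VC mean, minus that of the tested genes outside the chromosome 8 stretch (horizontal axis), for each autosome and for the arms of chromosome 8 (shaded), with 1 point per KO library. The long arm of chromosome 8 is the lowest row in all 3 libraries (-0.36, -0.38 and -0.33), and chromosome 22 the highest.

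To map where the shift starts and ends, medians of 25 consecutive genes were taken along the 333 genes with 6 values and a mean signal in the upper 50% of tested genes (123 on the short arm and 210 on the long arm). Each window is named after its middle gene, windows share members with their neighbours, and a relative median of -0.2 or less was counted as shifted. The median subtracted was that of tested genes of every signal outside the stretch. On this scale, genes outside the stretch with 6 values and an upper 50% signal stood at 0.008, 0.038 and 0.047 in KO replicates 1 to 3. Windows near the threshold therefore depend on this choice. On the short arm 0 of 111 windows were shifted in any KO library. On the long arm 197 of 198 windows were shifted in KO replicate 1 (99.5%), 152 in KO replicate 2 (76.8%) and 189 in KO replicate 3 (95.5%).

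The start of the shift lay at the border of the arms in every KO library, within a few genes. In KO replicate 1 the first shifted window was that of CEBPD (-0.22), after -0.16 at SPIDR. In KO replicate 2 it was that of PRKDC (-0.28), after -0.17 at CEBPD. In KO replicate 3 it was that of PCMTD1 (-0.2014), after -0.1986 at SNAI2, so this start rests on a small step over the threshold. The windows of THAP1 and RNF170, near the end of the short arm, were at -0.17 and -0.16 in KO replicate 2. In KO replicate 3 they were at -0.15 and -0.12. These windows also hold long arm genes, so they cannot by themselves place a decline on the short arm. The last window with short arm genes only, that of AP3M2, was at -0.07, -0.03 and -0.10 in KO replicates 1 to 3. The median short arm windows were 0.08, 0.14 and 0.13. Signals were thus already lower near the end of the short arm in each KO library, without meeting the threshold.

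The end of the shift was not reached in KO replicates 1 and 3. In KO replicate 1 all windows from CEBPD to the last, CYHR1, formed a single run of 197 windows. In KO replicate 3 a run of 50 windows from LYPLA1 to LRRCC1 was followed by one of 136 windows from CA2 to CYHR1. KO replicate 2 was more broken, with 55 windows from PRKDC to IMPA1, 68 from NBN to ZHX1, 23 from EFR3A to TIGD5, and 3 shorter runs. Its windows between and after these runs came close to the threshold without meeting it, with -0.18 at LRRCC1 and -0.19 at CYHR1. The highest window of KO replicate 2 on the long arm, at PLEC, was -0.14. No long arm window of any KO library was above 0.

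**Figure D3:**
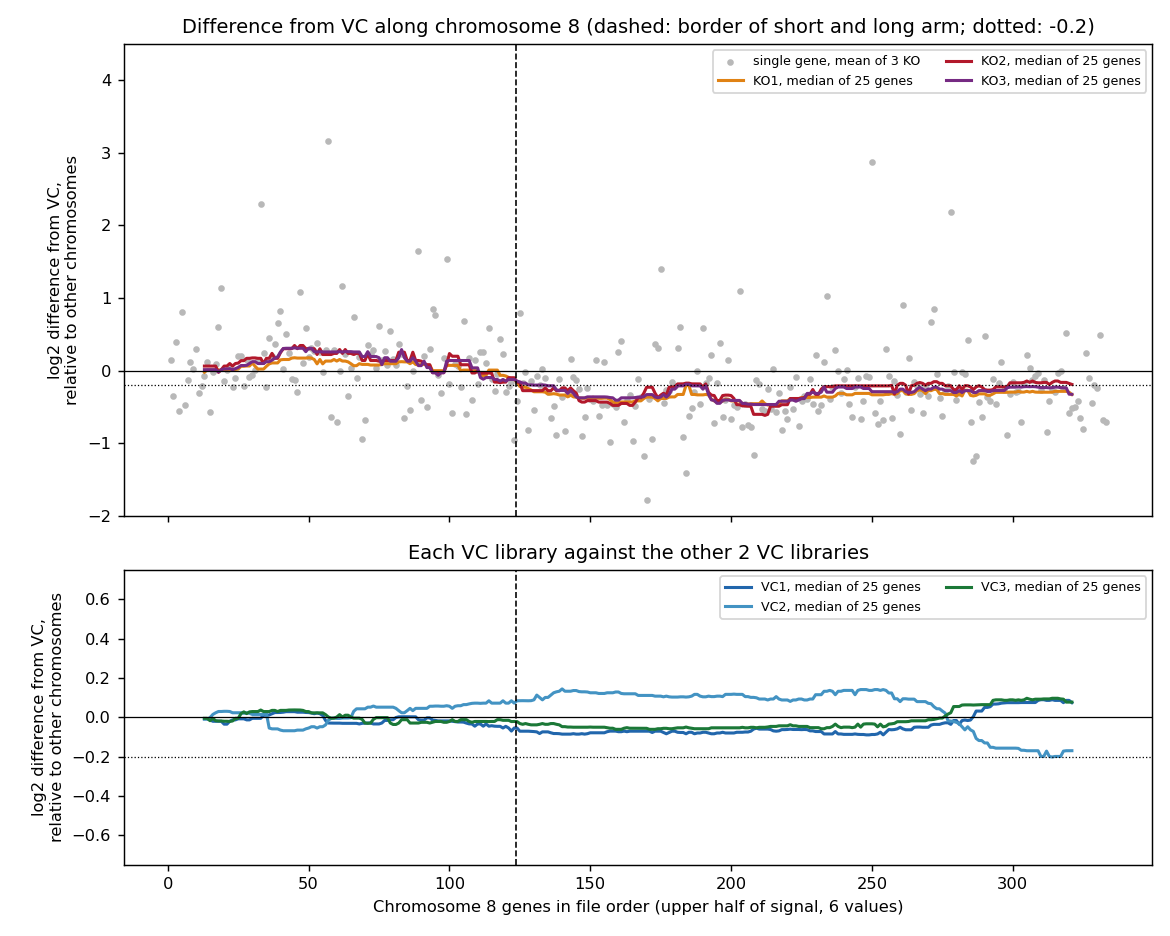
Relative log2 difference from VC (vertical axis) along the 333 mapped genes of chromosome 8 in file order (horizontal axis), with the border of the arms dashed and the threshold of -0.2 dotted. The upper panel holds single genes (grey, mean of 3 KO) and medians of 25 genes per KO library, which lie under 0 in every long arm window, and the lower panel the same medians for each VC library against the other 2, on an enlarged vertical scale.

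The shift was deepest around CCNE2, PTDSS1 and SDC2, in the middle of the long arm. The lowest windows were those of SDC2 in KO replicate 1 (-0.48) and of PTDSS1 in KO replicate 2 (-0.62) and KO replicate 3 (-0.47). For the mean of the 3 KO libraries the lowest window was that of CCNE2, at -0.53, and the median long arm window was -0.30. On the short arm, the highest windows of all 3 KO libraries were at BIN3, with 0.18, 0.34 and 0.31. A run of 29 windows from SLC39A14 to CCDC25 was at or over 0.2 in KO replicates 2 and 3, whereas KO replicate 1 had no such window. The short arm was therefore not level, and its middle lay above the median of other chromosomes in all 3 KO libraries, by less in KO replicate 1.

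The VC libraries also differed from each other along chromosome 8. Their short arm windows ranged from -0.07 to 0.08. On the long arm VC replicate 2 was above the other 2 VC libraries over most of the arm (up to 0.15, at PLAG1) and below them towards its end, with the lowest window, at HSF1, at -0.2016, which met the threshold used for the KO libraries. In 15 of the 198 long arm windows, between PUF60 and VPS28, VC replicate 2 was lower than KO replicate 2 (-0.1639 at HSF1). No long arm window of VC replicate 1 or 3 was lower than that of a KO library, nor was one of VC replicate 2 lower than KO replicate 1 or 3. From ARC to C8orf33, the signal of VC replicate 2 was below both other VC libraries for 45 of 50 mapped genes. All 92 kept genes of this end had a median KO minus VC difference of -0.45, and of -0.54 with VC replicate 2 left out. The rest of the long arm, 359 genes, stood at -0.46 with all libraries and at -0.45 without VC replicate 2.

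A least-squares split of the mapped genes gave 2 segments for the mean of the KO libraries and for KO replicates 2 and 3, from TDRP to RNF170 (119 genes) and from HOOK3 to C8orf33 (214 genes). For the mean, the segment medians were 0.11 and -0.30. In KO replicate 1 the step lay farther on, between MCM4 (127 genes to this point, median 0.06) and UBE2V2 (206 genes from here, median -0.35). HOOK3, FNTA, POMK and HGSNAT, the last 4 mapped genes of the short arm, were therefore placed with the long arm in KO replicates 2 and 3. At the border itself, single genes stood on both sides of 0.

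RNF170 (chr8:42849637-42897290, minus strand), which encodes a ubiquitin ligase of the endoplasmic reticulum, had signals of 1.06, 1.12 and 0.99 in VC and 1.18, 1.21 and 1.13 in KO. HOOK3 (chr8:42896932-43030539, plus strand), an adaptor between cargo and microtubule motors, had 3.06, 3.23 and 3.07 in VC and 2.86, 2.64 and 2.65 in KO. The groups did not overlap for either gene, and they were in opposite order, with differences of 0.12 (SE 0.071) and -0.41 (SE 0.098). The 2 genes overlap by 359 bases on opposite strands. How strand was used in the counting is not given in the sources used here, so their signals may share reads.

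The next genes towards the centromere were lower in KO. FNTA, a subunit of the enzymes that attach farnesyl and geranylgeranyl groups, had a difference of -0.33 (SE 0.076), and POMK, a kinase that modifies dystroglycan, one of -0.26 (SE 0.077). HGSNAT (chr8:43140455-43202855), a lysosomal enzyme of heparan sulphate breakdown and the last short arm gene, had 2.48, 2.44 and 2.34 in VC and 1.59, 1.23 and 1.25 in KO. At -1.06 (SE 0.12) it had the lowest difference of the 123 mapped short arm genes, while 25 genes that were not mapped had a lower one.

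On the other side of the centromere, SPIDR (chr8:47260575-47736306), a scaffold protein of homologous recombination, had 2.86, 2.89 and 2.83 in VC and 2.46, 2.28 and 2.23 in KO, a difference of -0.54 (SE 0.086). CEBPD (chr8:47736909-47739086), a transcription factor induced by stress and inflammation, lies next to it and was higher in KO, with 2.34, 1.80 and 2.26 in VC and 2.90, 2.78 and 2.77 in KO. The 2 neighbours thus stood on opposite sides of 0, at -0.54 and 0.69.

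PRKDC (chr8:47773108-47960183), the catalytic subunit of the DNA-dependent protein kinase, had 6.48, 6.53 and 6.48 in VC and 6.47, 5.98 and 6.18 in KO. MCM4 (chr8:47960185-47978160), a subunit of the replicative helicase, had 7.03, 7.02 and 7.03 in VC and 7.30, 6.52 and 6.86 in KO. For both genes the VC values lay close together and KO replicate 1 stood apart from KO replicates 2 and 3. In MCM4 the groups overlapped, and its difference of -0.13 (SE 0.20) turned to 0.06 without KO replicate 2. UBE2V2, a partner of ubiquitin conjugation in DNA damage tolerance, was lower in every KO library, with a difference of -0.94 (SE 0.14).

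**Figure D4:**
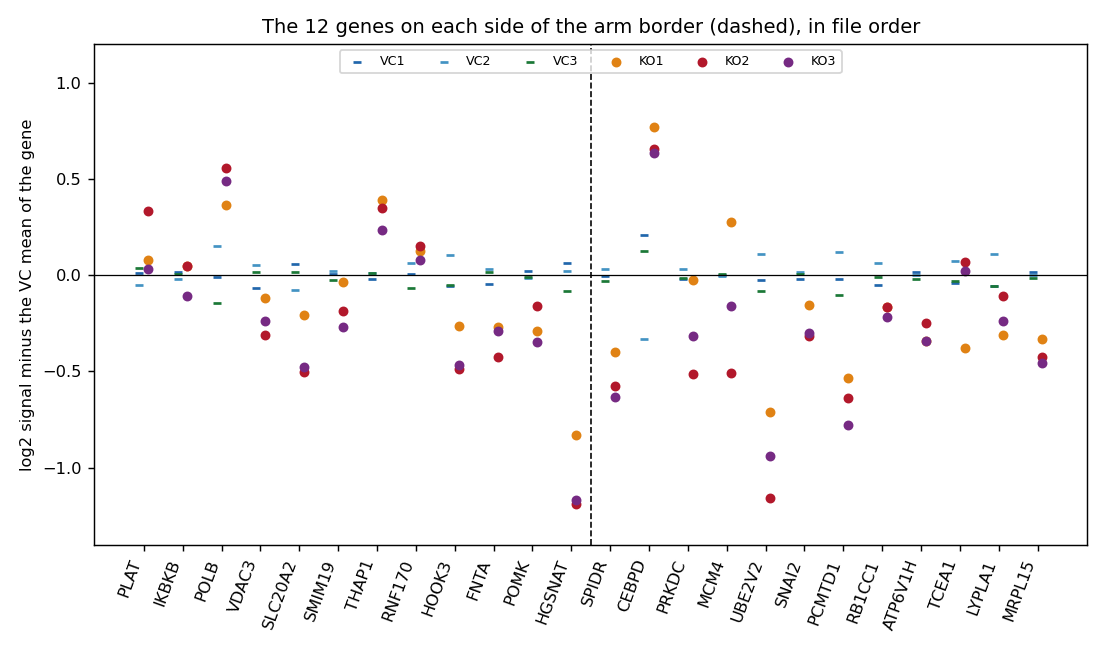
Log2 signal minus the VC mean of each gene (vertical axis) for the 12 mapped genes on each side of the arm border (dashed), in file order, with dashes for VC libraries and points for KO libraries. From HOOK3 on, all KO points lie under 0 except those of CEBPD, of MCM4 in KO replicate 1 and of TCEA1 in KO replicates 2 and 3.

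Single genes of the long arm differed widely around the shared shift. Of the 210 mapped long arm genes, 176 had a lower mean in KO, and 169 were under the VC mean in all 3 KO libraries. JPH1, a junctophilin that ties the plasma membrane to the endoplasmic reticulum, had the lowest difference of the mapped long arm genes. Its signals were 2.54, 2.54 and 2.58 in VC and 1.06, 0.33 and 0.59 in KO, a difference of -1.89 (SE 0.19). E2F5, a transcription factor of the E2F family that binds the retinoblastoma-like proteins, had 3.59, 3.71 and 3.69 in VC and 2.47, 1.58 and 2.36 in KO, a difference of -1.53 (SE 0.25). LRRCC1, a centrosomal protein encoded close to E2F5, stood at -1.02 (SE 0.11). Among the long arm genes left out of the map for a mean signal in the lower 50%, 16 had a lower difference than JPH1.

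LY6K, a membrane-anchored protein of the LY6 family, had 6.53, 6.38 and 6.45 in VC and 5.36, 5.00 and 4.95 in KO. THEM6, a neighbour of LY6K, had 4.29, 3.97 and 4.35 in VC and 3.16, 2.62 and 2.94 in KO. Their differences were -1.36 (SE 0.13) and -1.30 (SE 0.18). TMEM70, which helps to assemble the mitochondrial ATP synthase, had 3.05, 3.05 and 2.98 in VC and 2.07, 1.51 and 1.66 in KO, a difference of -1.28 (SE 0.16). In the 5 lowest mapped genes of the arm the groups were far apart, and KO replicate 1 was the KO library nearest to VC.

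Some long arm genes went the other way. TNFRSF11B, which encodes osteoprotegerin, the decoy receptor that restrains osteoclast formation, had 1.64, 1.88 and 1.71 in VC and 4.43, 4.97 and 4.13 in KO, a difference of 2.77 (SE 0.23). NDRG1, a gene induced by hypoxia and differentiation, had 2.56, 2.21 and 2.56 in VC and 3.66, 5.04 and 4.86 in KO, a difference of 2.08 (SE 0.39). HEY1, a repressor downstream of Notch, had 3.43, 3.57 and 3.49 in VC and 4.52, 5.04 and 4.81 in KO, a difference of 1.29 (SE 0.15). These 3 were the highest of the mapped long arm genes.

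In all, 20 of the 210 mapped long arm genes had all KO values above all VC values, of which 10 were called. These are 9.52% and 4.76% of the mapped genes, beside 22.6% of all genes with 6 values and 13.1% of all tested genes. Among genes outside the stretch with 6 values and a signal in the upper 50%, the shares were 28.8% and 17.0%. Besides TNFRSF11B, NDRG1, HEY1 and CEBPD these 10 were GEM (0.99), CTHRC1 (0.91), FBXO32 (0.79), MYC (0.73), TRIB1 (0.56) and RIPK2 (0.48), named after their values were seen. They are scattered over the arm from CEBPD, next to the centromere, to NDRG1. Their known roles differ, with GEM a small GTPase, FBXO32 a ubiquitin ligase subunit, MYC a transcription factor of growth, TRIB1 a pseudokinase and RIPK2 a kinase of innate immunity.

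Of the 123 mapped short arm genes, those farthest from 0 were higher in KO. STC1, a secreted glycoprotein hormone also made in bone, had 2.89, 2.86 and 2.91 in VC and 5.72, 6.33 and 5.74 in KO, a difference of 3.05 (SE 0.18). LOC105379316, a locus without a gene name, had 0.66, 0.32 and 0.66 in VC and 2.71, 2.77 and 2.72 in KO, a difference of 2.19 (SE 0.11). LINC01605, a long non-coding RNA, had 1.49, 1.34 and 1.58 in VC and 2.65, 3.34 and 3.03 in KO, a difference of 1.54 (SE 0.19). In each the KO values lay above all VC values.

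After HGSNAT, the lowest mapped short arm genes were ESCO2, CDCA2, PBK and TEX15. ESCO2, which acetylates cohesin in S phase, had 2.78, 2.84 and 2.72 in VC and 2.28, 1.21 and 1.69 in KO, a difference of -1.05 (SE 0.27). CDCA2, which targets a phosphatase to chromatin at mitotic exit, had 3.00, 2.98 and 2.96 in VC and 2.45, 1.90 and 2.10 in KO, a difference of -0.83 (SE 0.15). PBK, a mitotic kinase, had 5.23, 5.39 and 5.21 in VC and 4.76, 4.24 and 4.45 in KO, a difference of -0.79 (SE 0.15). TEX15, known from meiotic recombination, stood at -0.77 (SE 0.24). In these 4 genes KO replicate 2 was lowest and KO replicate 1 nearest to VC. ESCO2 and PBK overlap by 3021 bases on opposite strands, so reads may be shared between them.

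**Figure D5:**
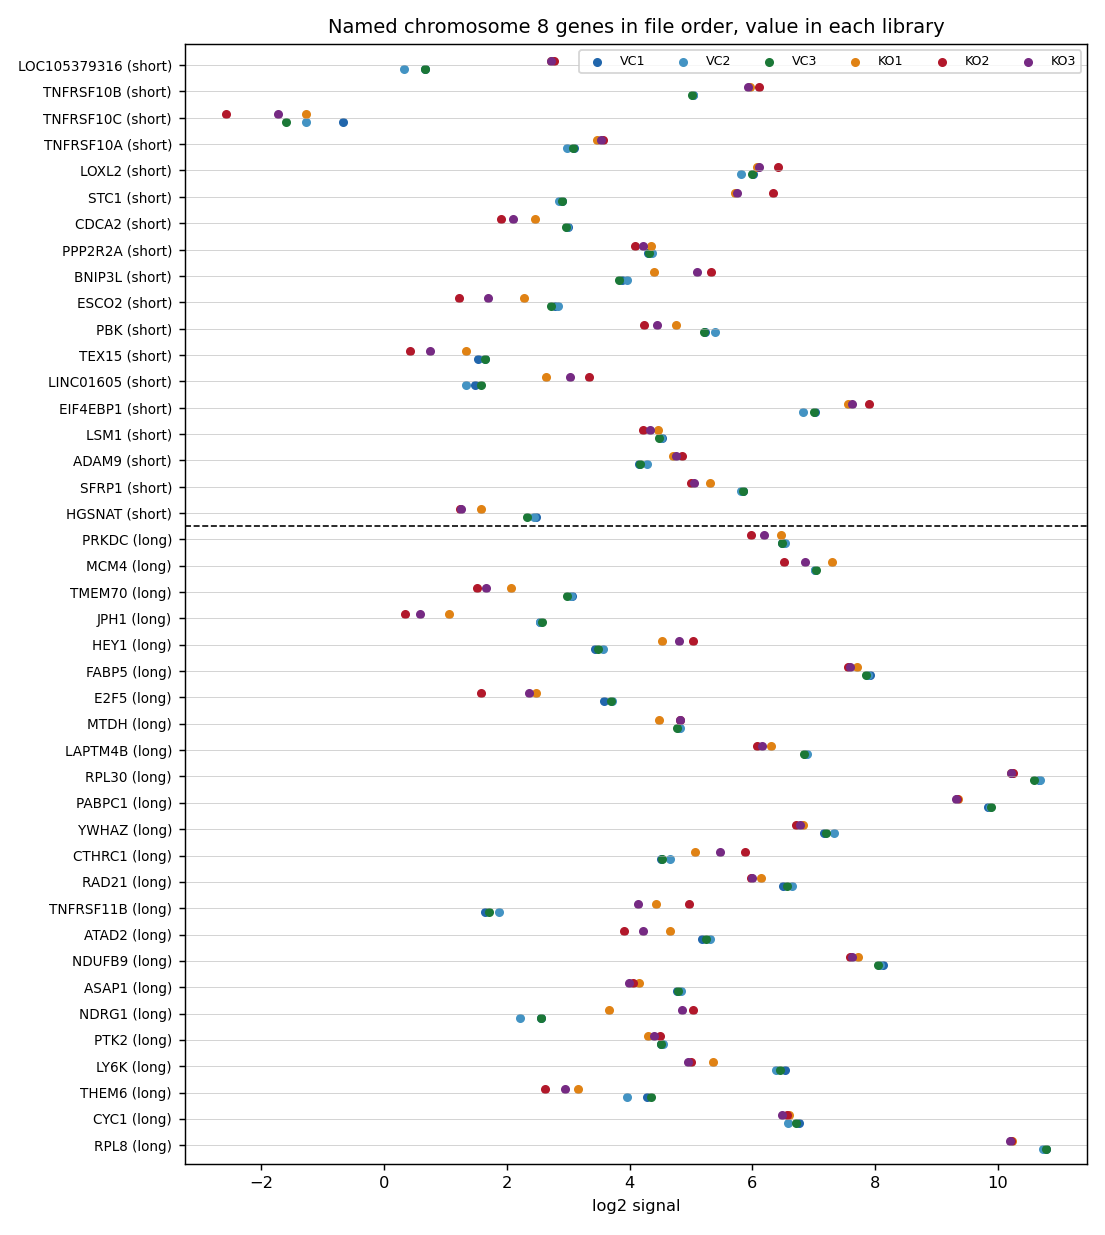
Log2 signal (horizontal axis) in each of the 6 libraries for the named genes with the lowest and highest differences and the best-expressed genes of each list, in file order, with the arm in brackets and the arm border dashed. VC points lie close together for most genes, while those of TNFRSF10C are spread wider. Below the border most KO points lie to the left of the VC points, with TNFRSF11B, NDRG1, HEY1 and CTHRC1 to the right.

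Gene lists written by function and by neighbourhood were counted on both arms, by count and median only. The called counts are to be read beside all tested genes, of which 19.8% were called lower and 13.1% higher. The 4 TRAIL receptors, which trigger or dampen apoptosis at the cell surface, form a cluster in the middle of the short arm and had a median difference of 0.56, with 2 called higher. TNFRSF10B, a death receptor, had 5.03, 5.03 and 5.02 in VC and 5.96, 6.11 and 5.93 in KO, a difference of 0.97 (SE 0.076). TNFRSF10A, the other death receptor, stood at 0.48 (SE 0.071). TNFRSF10C, a decoy receptor without a death domain, had -0.66, -1.28 and -1.59 in VC and -1.28, -2.58 and -1.73 in KO, with overlapping groups.

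Of 22 genes around FGFR1, 4 were called lower (18.2%) and 4 higher (18.2%), with a median difference of -0.11. Among them EIF4EBP1, a repressor of cap-dependent translation, stood at 0.74 (SE 0.12), ADAM9, a membrane metalloprotease, at 0.58 (SE 0.078) and LSM1, a factor of mRNA decay, at -0.17 (SE 0.086). FGFR1, the growth factor receptor itself, stood at -0.70 (SE 0.13). Genes of this short stretch were thus spread to both sides of 0.

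The list of 14 short arm genes known as candidate tumour suppressors or signalling brakes had a median of -0.04. Of these, 2 were called lower (14.3%) and 1 higher (7.14%). SFRP1, a secreted Wnt antagonist, had 5.85, 5.82 and 5.85 in VC and 5.31, 5.00 and 5.05 in KO, a difference of -0.72 (SE 0.10). BNIP3L, a mitophagy receptor induced by hypoxia, had 3.87, 3.95 and 3.84 in VC and 4.40, 5.32 and 5.10 in KO, a difference of 1.06 (SE 0.25). PPP2R2A, a regulatory subunit of phosphatase 2A, stood at -0.11 (SE 0.090) with overlapping groups.

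The list of DNA repair and replication genes has members on both arms. Its 16 long arm members all had a lower mean in KO, with a median of -0.55 and 12 called lower, whereas its 6 short arm members had a median of -0.08, with 1 called lower and 1 higher. Of all 210 mapped long arm genes, 83.8% had a lower mean and 62.9% were called lower, beside 19.8% of all tested genes. Among genes outside the stretch with 6 values and a signal in the upper 50%, 21.6% were called lower. The long arm counts of this and the next lists are to be read beside these shares. RAD21, the cohesin subunit cleaved at anaphase, had 6.49, 6.64 and 6.57 in VC and 6.14, 5.98 and 5.998 in KO, a difference of -0.53 (SE 0.083). ATAD2, a chromatin ATPase of proliferating cells, had 5.18, 5.31 and 5.24 in VC and 4.66, 3.91 and 4.22 in KO, a difference of -0.98 (SE 0.20).

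Of the 9 lists, that of ribosome and translation genes had the smallest median SD between KO libraries (0.0625 per gene). All 15 long arm members had a lower mean in KO, with a median of -0.42 and 11 called lower, while the single short arm member, EIF4EBP1, was called higher. RPL8, a protein of the large ribosomal subunit encoded near the end of the long arm, had 10.79, 10.74 and 10.78 in VC and 10.23, 10.21 and 10.19 in KO, a difference of -0.56 (SE 0.062). RPL30, another protein of the large subunit, had 10.67, 10.68 and 10.59 in VC and 10.22, 10.24 and 10.21 in KO, a difference of -0.42 (SE 0.065). PABPC1, which binds the poly(A) tail, had 9.85, 9.87 and 9.88 in VC and 9.35, 9.34 and 9.32 in KO, a difference of -0.53 (SE 0.061). In these 3 genes the KO values differed by less than 0.05 from each other. Ribosomal protein genes have many near-identical pseudogenes, and how reads were divided among such copies is not given in the sources used here.

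Energy and mitochondrial genes had a median of -0.29, with 9 called lower and 1 higher, and 11 of the 12 long arm members had a lower mean in KO. NDUFB9, a subunit of respiratory complex I, had 8.13, 8.07 and 8.05 in VC and 7.71, 7.60 and 7.63 in KO, a difference of -0.44 (SE 0.069). FABP5, a fatty acid binding protein, stood at -0.27 (SE 0.074). CYC1, cytochrome c1 of complex III, stood at -0.14 (SE 0.082), with overlapping groups. CYC1 lies in the end of the arm where VC replicate 2 was low.

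Of 18 genes of vesicle traffic, the proton pump and protein turnover, 11 were called lower (61.1%) and 0 higher, and the 2 short arm members both had a higher mean in KO. YWHAZ, a 14-3-3 adaptor protein, had 7.17, 7.33 and 7.21 in VC and 6.83, 6.70 and 6.78 in KO, a difference of -0.47 (SE 0.080). LAPTM4B, a lysosomal membrane protein, stood at -0.68 (SE 0.082). MTDH, an RNA-binding protein of the endoplasmic reticulum encoded next to LAPTM4B, had 4.80, 4.82 and 4.77 in VC and 4.48, 4.82 and 4.81 in KO. Its difference of -0.09 (SE 0.11) was 0.02 without KO replicate 1.

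The 18 genes around MYC had a median of -0.27, with 8 called lower and 4 higher. ASAP1, a regulator of the cytoskeleton, had 4.78, 4.83 and 4.78 in VC and 4.16, 4.05 and 3.98 in KO, a difference of -0.73 (SE 0.076). PTK2, which encodes focal adhesion kinase, stood at -0.13 (SE 0.078). Of the 20 bone and matrix genes 19 were kept (CCN4 was not), with a median of 0.13, 5 called lower and 5 called higher. Its 14 long arm members had a median of -0.14, with 4 called lower and 3 called higher. CTHRC1, a secreted glycoprotein that limits collagen deposition, had 4.52, 4.66 and 4.52 in VC and 5.07, 5.89 and 5.47 in KO, a difference of 0.91 (SE 0.22). LOXL2, a collagen cross-linking enzyme of the short arm, stood at 0.26 (SE 0.12).

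KO replicate 1 differed from the other KO libraries in spread more than in the shift. Across the 210 mapped long arm genes the interquartile range of the difference from the VC mean was 0.32 in KO replicate 1, 0.61 in KO replicate 2 and 0.49 in KO replicate 3. Across the short arm these ranges were 0.34, 0.65 and 0.47. The single genes of KO replicate 1 thus lay closer to the shared shift, and its map was the least broken, while its relative long arm median of -0.36 lay between those of the other two.

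From CYHR1, the middle gene of the last window, to the end of the arm, 11 of 13 mapped genes had a lower mean in KO, with a median difference of -0.56. The other 2 were C8orf82 (0.13) and ZNF16 (0.37), and the KO values of ZNF16 lay above all its VC values. C8orf33 (chr8:145052378-145066685), the last gene of the stretch, had 4.17, 4.21 and 4.14 in VC and 3.53, 3.29 and 3.25 in KO, a difference of -0.82 (SE 0.098). CYHR1 itself stood at -0.62 (SE 0.087). At the other end, ZNF596, the first gene of the stretch, had -2.70, -1.98 and -2.92 in VC and -2.74, -3.36 and -3.16 in KO. Its groups overlapped, with a difference of -0.55 (SE 0.30). TDRP, the first mapped gene, stood at 0.03 (SE 0.090).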

How the data were processed

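RNA of 3 VC and 3 CNTNAP4 KO libraries of 143B cells was sequenced by the authors. The labels name a TruSeq stranded mRNA kit, CASAVA, STAR, Partek and GRCh38.p13, and the study's methods name CLC Genomics software and Partek Genomics Suite. The deposited log2 signals, quantile-normalized between libraries, cover 54308 rows. Empty cells were left empty. Genes with at least 2 values per group (19306) were compared in R 4.3.3 with limma 3.58.1, without trend, two-sided, with Benjamini-Hochberg adjustment. The script was tested on simulated data.

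The members and lists were chosen with earlier results of these data known. Named genes are the first and last of each arm, the 5 lowest and 3 highest mapped genes per arm, the 3 with the highest mean signal of each list, and the edges of runs and segments. Segments held at least 15 genes, and BIC set their number. Gene types and order came from RefSeq (GRCh38.p14, names and order only), and coordinates are those of GENCODE release 29 (GRCh38), by symbol. Replicate numbers did not pair the libraries: the correlation of deviations between VC and KO libraries of the same number was 0.02, 0.01 and -0.01. Alternatives were a filter on signal or on missing values, 1 added to the linear signal, median centring, a replicate block, robust moderation, each library left out, and other windows and thresholds. Sequences were not used here.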

Additional observations from a re-analysis of the deposited data

How the results depend on the processing

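The count of genes called among all tested genes was 6354. With the replicate block it was 1533. In that setting 67 long arm genes (14.9%) and 12 short arm genes (4.71%) were called lower, beside 4.86% of all tested genes. With each library left out in turn, the count of genes called among all tested genes was 1223 to 8669. Signs of the arm medians were the same under every alternative run. The long arm median of -0.46 was -0.15 with 1 added to the linear signal, where that of all tested genes was -0.02, and -0.38 with median-centred libraries, where that of all tested genes was -0.04. Over the libraries left out it ran from -0.51 to -0.43, and that of the short arm from -0.12 to -0.05. Of the long arm windows of the KO mean, 93.9% were shifted, which became 80.8% with windows of 15 genes and 43.9% with a threshold of -0.3. Of the short arm windows 0% were shifted, which became 4.13% when all genes with 6 values were mapped. The runs also depended on the setting. In KO replicate 1 the longest run was 197 windows from CEBPD. It became 90 from WWP1 with windows of 15 genes, and 74 from CA2 with a threshold of -0.3. In KO replicate 3 it was 136 windows from CA2, and 95 from RPS20 with windows of 15 genes. Leaving out the long arm from ARC on, an alternative chosen after seeing the data, gave a long arm median of -0.46. Among 958 values of 80 named genes under the alternatives, 39 moved by more than the spread between libraries. The sign differed in 8 values of 6 genes (MCM4, MTDH, GRINA, TRIM35, REEP4 and TDRP), all with differences near 0. The cause of these changes was not tested. Since depth is unknown, the precision of low signals cannot be given, and the labels do not say which clone each KO library came from.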
